A study of Mus musculus with 10 samples.

Results

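Interferon-stimulated genes (ISGs) were followed in LSK cells of the mouse bone marrow. These cells lack lineage markers, carry Sca-1 and c-Kit, and hold the stem cells and the earliest progenitors of blood. A named list of 37 ISGs was taken by gene identifier from the deposited count table, and all 37 were among its 25078 genes. They include Mx1, whose promoter drives Cre in these mice, and Ly6a, which encodes the Sca-1 antigen of the sort. All 37 had counts and were fitted among the 18747 genes that had any, and all 37 reached a mean of 1 RPKM (reads per kilobase of exon and per 1000000 reads) in at least 1 genotype. Ifit3 reached it only in CM/miR-126Δ/Δ mice.

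The study asked which genes in these cells depend on miR-126 when the leukemia fusion gene is expressed. The CM group held 5 mice with Cbfb 56M/+ and Mx1-Cre, a conditional knock-in of the inv(16) fusion Cbfb-MYH11. The CM/miR-126Δ/Δ group held 5 mice with the same alleles and miR-126 flox/flox. Both groups were on a C57BL/6 background, and males and females were used. All 10 mice received poly(I:C), 7 doses of 14 mg/kg that began at 6 to 8 weeks of age, and all LSK cells were taken 6 weeks after this treatment, before leukemia. Cre was therefore switched on by an interferon response in both groups, and not only in blood cells. No untreated and no Cre-negative library was analysed here, so a remaining effect of poly(I:C) and a level that was never raised cannot be told apart.

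Poly(I:C) mimics the double-stranded RNA of viruses. Cells sense it through RIG-I-like receptors and other sensors and release type I interferon, which acts through its receptor and the kinases Jak1 and Tyk2 on a transcription factor complex that holds Stat2 and Irf9. This complex binds a promoter element with GAAA repeats, the interferon-stimulated response element, and switches on genes whose products sense foreign RNA, block translation, cut RNA or trap virus particles. In blood stem cells a short interferon response is known to end quiescence for a time and to raise Sca-1.

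Libraries held 23649233 to 33202086 counts in CM and 24141663 to 26615091 in CM/miR-126Δ/Δ mice, a difference in total that passed the test (exact permutation test, two-sided, p = 0.0476). At these totals before scaling, 3 counts correspond to 0.0904 to 0.127 per 1000000 reads, and such limits cover counting error only. Values in CPM (counts per 1000000 reads) use totals scaled by a normalization factor, which shifts these limits in each library. The precursor locus of the deleted gene, Mir126a, was counted 4, 5, 0, 2 and 3 times in CM libraries 1 to 5 and 0 times in every CM/miR-126Δ/Δ library. In both genotypes, mice 1 to 3 had 57095 to 145380 counts of Xist and 1 to 3 counts over Y-linked genes, while mice 4 and 5 had 8 to 21 and 5484 to 8009. Sex and mouse number therefore coincide. The 10 LSK markers summed to 3288 to 3839 CPM in the CM group and 3155 to 3854 CPM in CM/miR-126Δ/Δ mice, and none of them was at 0. An unadjusted p under 0.05 in edgeR's test was reached by 2 of the 10, against 6.61% of all genes. They were Hlf (log2 fold change 0.31) and Meis1 (0.19), both higher in CM/miR-126Δ/Δ mice and named after their values were seen. Their adjusted p-values in this test were 0.661 and 0.746.

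The GAAA element was sought in the promoters as background for the list. RefSeq (build GRCm38.p6) gave the 250 bases before and 50 bases after the start of 26 of the 37 genes. A pair of GAAA repeats with any 2 bases between them, or of TTTC repeats where the element lies on the other strand, was present in 12 of these 26 promoters (46.2%), against 1079 of 27025 genes with a promoter in the table (3.99%). A match is a description of the letters and not evidence of binding. Windows of 30 bases are shown for 6 genes whose levels are described in detail here, written 5′ to 3′ along the gene's strand, with capitals marking the GAAA or TTTC repeats of the match.
Isg15: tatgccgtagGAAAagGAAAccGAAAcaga
Oas1a: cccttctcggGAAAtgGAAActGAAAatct
Bst2: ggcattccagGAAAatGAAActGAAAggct
Oas3: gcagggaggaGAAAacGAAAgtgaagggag
Ddx58: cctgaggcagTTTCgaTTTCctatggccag
Ifit1: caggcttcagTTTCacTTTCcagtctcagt
Within these windows, Isg15, Oas1a and Bst2 each had 3 repeats in a row at the same spacing, and Oas3, Ddx58 and Ifit1 had 2. Each window shows the first match of its promoter. The whole promoter held 2 matches for Ifit1 and 3 for Isg15, so some lie outside the windows. The windows lie at chr4:156200877-156200906 (Isg15), chr5:120907526-120907555 (Oas1a), chr8:71537583-71537612 (Bst2), chr5:120777715-120777744 (Oas3), chr4:40239804-40239833 (Ddx58) and chr19:34640775-34640804 (Ifit1), all on the minus strand except that of Ifit1. Counted from the gene's start, they begin at bases -88, -30, -140, -85, -8 and -114 in the same order. The other 6 genes with the letters were Eif2ak2, Ifih1, Ifit3, Ifitm3, Rsad2 and Stat2. No promoter was in the table for Usp18, Parp9, Parp14, Mx1, Mx2, Dhx58, Oas2, Ly6a, Rtp4, Zbp1 and Ifi27.

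The 37 genes lie on 15 chromosomes, and 16 of them have another member within 100000 bases. Ifit2, Ifit3 and Ifit1 follow each other on chromosome 19 (34550694 to 34650009, mm10). Oas2 and Oas3 lie 3249 bases apart on chromosome 5 and Oasl2 and Oasl1 10994 bases apart on the same chromosome. Rsad2 and Cmpk2 form a divergent pair on chromosome 12 with 12762 bases between them. Dtx3l and Parp9 overlap by 558 bases on opposite strands of chromosome 16, Ifi27 overlaps Ifi27l2a on the opposite strand, and Stat2 overlaps Apof on the same strand. The kit marks the strand, but whether the counting used it is not given in the sources used here, so reads could be shared in these pairs. Close copies such as Ifit3 with Ifit3b or Oas1a with Oas1g could also share reads.

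Levels per length covered more than 2 orders of magnitude. Ifitm3, which blocks viral entry at membranes, was the highest with 189 RPKM in CM and 179 RPKM in CM/miR-126Δ/Δ mice, followed by its neighbour Ifitm1 with 136 and 123 RPKM. Ly6a came next with 57.2 and 58.4 RPKM, then Dtx3l, an E3 ligase of ADP-ribosylation complexes, with 40.9 and 42.1 RPKM. Only the step from Ifitm1 to Ly6a separated neighbours in this order, since the ranges of all other neighbours over the 10 mice overlapped. Several genes best known from acute interferon responses were at the low end. Isg15, a ubiquitin-like protein, had 5.18 and 6.28 RPKM, Ifit1, which binds foreign RNA caps, 4.08 and 4.93 RPKM, and Ifit3, its partner, 0.852 and 1.31 RPKM. In bulk RNA, fewer expressing cells and less RNA per cell cannot be told apart.

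**Figure D1:**
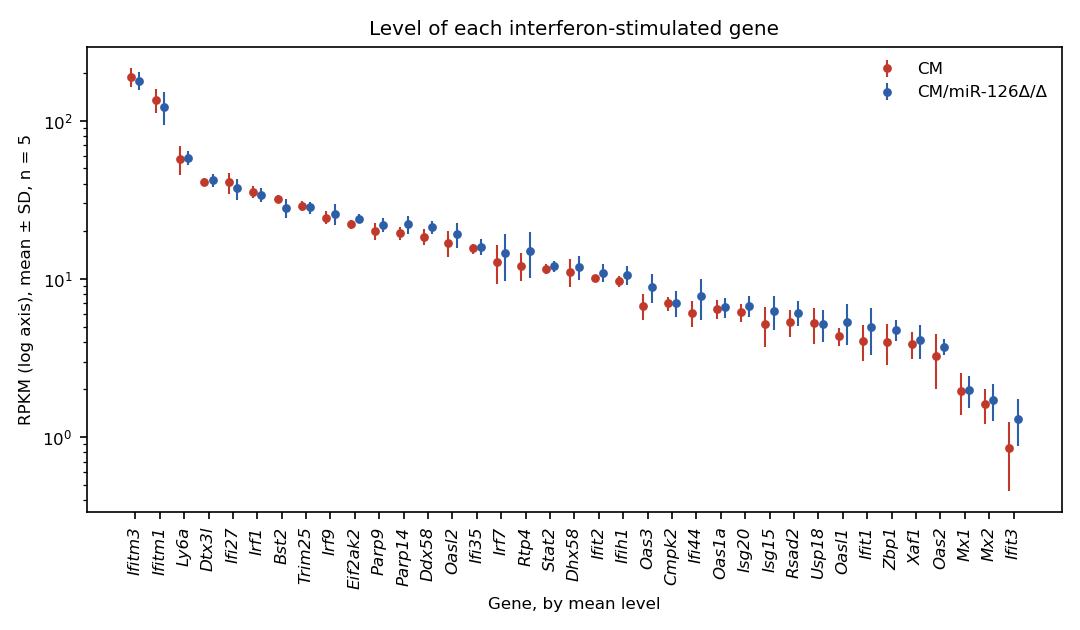
Mean level of the 37 genes in RPKM (logarithmic axis) in CM (red) and CM/miR-126Δ/Δ (blue) mice, with bars of 1 SD over 5 mice, ordered by mean level. The levels run from 184 RPKM for Ifitm3 to 1.08 RPKM for Ifit3 over the 10 mice, and the bars of the genotypes overlap for every gene.

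Mx1 encodes a dynamin-like GTPase against influenza viruses, and RefSeq lists both Mx1 and Mx2 as transcribed pseudogenes in this genome. The endogenous Mx1 transcript was low in every mouse, with means of 1.95 RPKM for CM and 1.97 RPKM for CM/miR-126Δ/Δ. It measured 3.42, 5.22, 7.12, 5.51 and 7.76 CPM in CM mice 1 to 5 and 4.49, 4.44, 7.40, 6.69 and 6.34 CPM in CM/miR-126Δ/Δ mice 1 to 5. Mouse 1 was the lowest in CM, mice 1 and 2 were the lowest in CM/miR-126Δ/Δ, and the genotypes overlapped fully. The log2 fold change between genotypes was 0.02 (SE 0.216), so that neither group had detectably more RNA from the gene whose promoter drove its Cre. Mx2, 73174 bases away, measured 3.91 ± 0.972 CPM (SD, n = 5) in the CM group and 4.16 ± 1.10 CPM in CM/miR-126Δ/Δ mice.

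Ly6a was used through its protein to sort the cells, so its level is partly set by the gate. It measured 54.6, 43.6, 48.7, 70.3 and 69.5 CPM in CM mice 1 to 5 and 58.0, 51.1, 61.2, 54.8 and 67.4 CPM in CM/miR-126Δ/Δ mice 1 to 5. In CM, mice 4 and 5 stood clearly above mice 1 to 3, whereas the CM/miR-126Δ/Δ mice showed no such gap. The means were 57.3 ± 12.1 and 58.5 ± 6.23 CPM, with a log2 fold change of 0.03 (SE 0.123).

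Between the genotypes, no ISG was called by the study's cutoffs (p at or below 0.01, a change of at least 1.5-fold and a mean of at least 1 RPKM), where 0.288% of all genes were. All genes here include those under 1 RPKM, which could not be called. In the quasi-likelihood test of edgeR, adjusted over all genes by Benjamini-Hochberg, 0 of the 37 had an adjusted p under 0.05 (0.0107% of all genes) and their adjusted p-values ran from 0.736 to 0.986. At an unadjusted p under 0.05 there were 2 ISGs (5.41%), Oas3 and Ddx58, against 6.61% of all genes. A fit of only the 11682 genes with at least 1 RPKM also gave 2, against 7.95% of those genes. DESeq2 also gave 2 at this level and 0 after adjustment. Oas3 and Ddx58 were both higher in CM/miR-126Δ/Δ mice, a direction in which 3.29% of all genes passed. The ranges of the 5 CM and the 5 CM/miR-126Δ/Δ values overlapped for every one of the 37, while they were apart for 1.38% of genes with at least 1 RPKM.

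The fold changes were small and leaned one way. The mean was higher in CM/miR-126Δ/Δ mice for 30 of the 37, where 42.5% of genes with at least 1 RPKM had a higher mean. The median log2 fold change of the 37 was 0.10 (range -0.19 for Bst2 to 0.61 for Ifit3), and it was -0.01 over all genes fitted. The lean was smaller without CM/miR-126Δ/Δ mouse 3, which was singled out after its values were seen. It had the highest value of all mice for 24 of the 37 ISGs, so leaving it out was bound to shrink the lean. The same limit applies to the fold changes of single genes without this mouse. The median also fell without CM mouse 1 (0.09) or CM mouse 2 (0.07). It rose without CM mouse 3 (0.13), CM mouse 4 (0.13) or CM mouse 5 (0.16). Without CM/miR-126Δ/Δ mouse 3, the median of the ISGs was 0.05, and 24 had a higher and 13 a lower mean. Over the 18680 genes of that fit, the median was -0.01 and 8919 had a higher mean. The only ISG with an unadjusted p under 0.05 was Bst2, which was lower (log2 fold change -0.27, adjusted p = 0.576 in edgeR's test). In this fit 3.37% of all genes were lower at that level.

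Same-numbered mice of the 2 genotypes correlated positively in their deviations from the group means, and a fit with the mouse number as a block gave more ISGs at an unadjusted p under 0.05. These were 7 of 37 (18.9%), all higher in CM/miR-126Δ/Δ mice, against 4.27% of all genes higher at this level. In order of p they were Oas3, Parp14, Ifi44, Ddx58, Ifit3, Eif2ak2 and Oasl1, with log2 fold changes of 0.40, 0.17, 0.33, 0.20, 0.65, 0.12 and 0.28 in this fit. None was called, and their adjusted p-values in edgeR's test ran from 0.244 (Oas3) to 0.528 (Oasl1). With the mice numbered 3 left out of both genotypes, the blocked fit gave 6 ISGs, 3 higher (Oas2, Oas3 and Parp14) and 3 lower (Bst2, Ifi27 and Ifitm3), which is 8.11% of the list in each direction. Of all genes, 4.67% were higher and 5.78% lower in that fit, and the median of the ISGs was 0.06. Without the block, the count of 2 also moved with single mice. The share of all genes with an unadjusted p under 0.05 is given beside each count. There was 1 ISG without CM mouse 1 (4.98% of all genes), CM mouse 2 (5.74%), CM/miR-126Δ/Δ mouse 3 (6.51%) or CM/miR-126Δ/Δ mouse 5 (4.87%). There were 4 without CM mouse 4 (5.01%), CM/miR-126Δ/Δ mouse 2 (4.13%) or CM/miR-126Δ/Δ mouse 4 (9.52%). The count was 5 without CM mouse 3 (8.21%), 7 without CM/miR-126Δ/Δ mouse 1 (6.08%) and 9 without CM mouse 5 (6.36%).

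**Figure D2:**
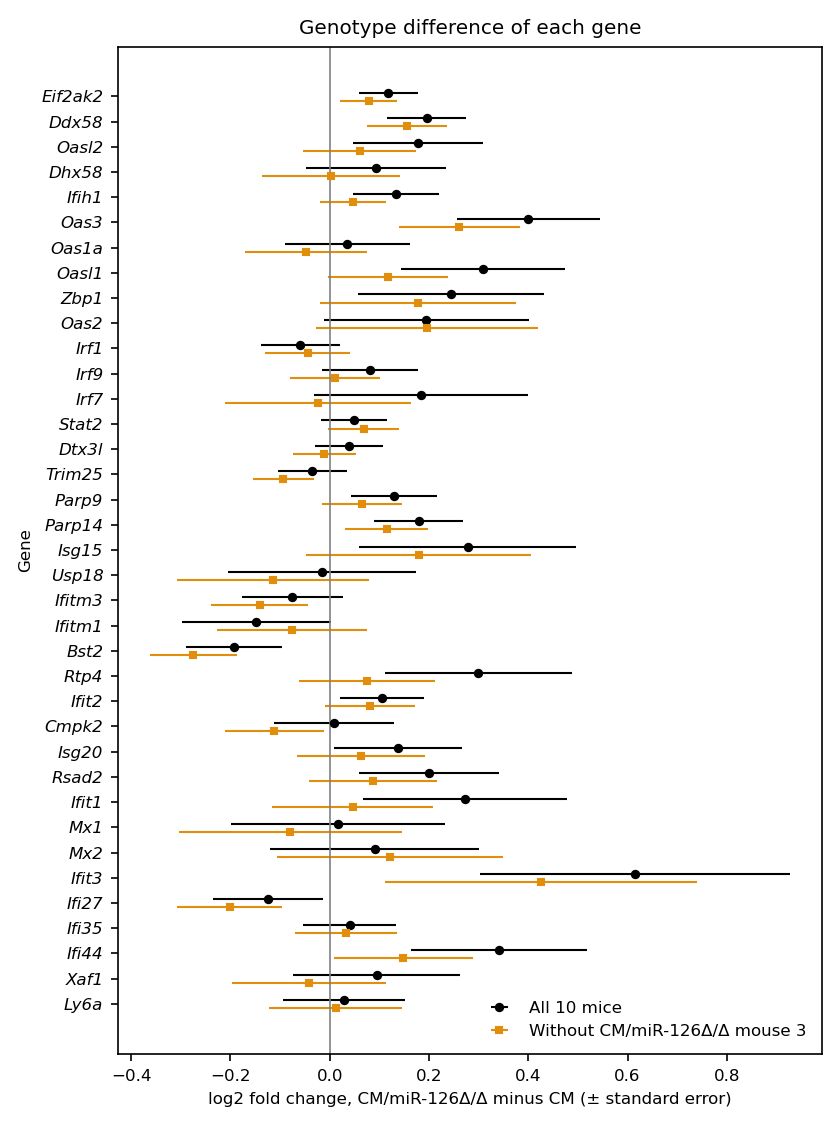
log2 fold change of each ISG between CM/miR-126Δ/Δ and CM mice (right is higher in CM/miR-126Δ/Δ), with bars of 1 standard error, over all 10 mice (black circles) and without CM/miR-126Δ/Δ mouse 3 (orange squares). Most points lie right of 0 with a median of 0.10, and most move left when this mouse is left out, to a median of 0.05. The mouse was singled out after its high values were seen, so this shift follows from the choice.

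All 10 genes of RNA sensing had a higher mean in CM/miR-126Δ/Δ mice, with a median log2 fold change of 0.19. An unadjusted p under 0.05 was reached by 2. Of genes with at least 1 RPKM, 42.5% had a higher mean, and 6.61% of all genes had such a p in either direction. CM/miR-126Δ/Δ mouse 3 was the highest of the 10 mice for 9 of these genes. Without CM/miR-126Δ/Δ mouse 3, 9 had a higher mean (8919 of 18680 genes fitted), the median was 0.10 and Oas1a was at -0.05. In that fit 0 had an unadjusted p under 0.05, so that neither Oas3 nor Ddx58 passed at this level. Oas3, a synthetase of the 2-5A messenger that activates RNase L, measured 29.2, 23.2, 32.2, 36.1 and 38.7 CPM in CM mice 1 to 5 and 39.1, 36.8, 57.5, 37.3 and 39.6 CPM in CM/miR-126Δ/Δ mice 1 to 5. Each CM/miR-126Δ/Δ mouse exceeded the CM mouse of its number, and mouse 3 exceeded all others. The log2 fold change was 0.40 (SE 0.144, adjusted p = 0.736 in edgeR's test), and 0.26 without CM/miR-126Δ/Δ mouse 3 (adjusted p = 0.763).

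Ddx58 encodes RIG-I, the sensor of short double-stranded RNA with triphosphate ends. It measured 84.7, 83.1, 86.9, 95.3 and 107 CPM in CM mice 1 to 5 and 106, 104, 116, 90.4 and 107 CPM in CM/miR-126Δ/Δ mice 1 to 5. Numbers 1 to 3 were higher in the CM/miR-126Δ/Δ mouse of the pair, and numbers 4 and 5 were not. The log2 fold change was 0.20 (SE 0.0799, adjusted p = 0.746 in edgeR's test). Its relatives Ifih1 (MDA5), which senses long double-stranded RNA, and Dhx58 (LGP2), which regulates both, had log2 fold changes of 0.13 (SE 0.0858) and 0.09 (SE 0.142).

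Eif2ak2, the kinase PKR that stops translation on sensing double-stranded RNA, varied least in this group. It measured 87.8, 98.4, 103, 93.7 and 95.6 CPM in CM mice 1 to 5 and 98.0, 101, 115, 100.5 and 105 CPM in CM/miR-126Δ/Δ mice 1 to 5. All 5 same-numbered comparisons were higher in CM/miR-126Δ/Δ, at a log2 fold change of 0.12 (SE 0.0600). Oasl1, an Oas-like protein without synthetase activity that limits Irf7, had log2 fold changes of 0.31 with all mice and 0.12 without CM/miR-126Δ/Δ mouse 3. Oas2 differed from the rest of the group in its highest mouse, which was CM mouse 3 with 20.3 CPM, above 8.26 to 14.4 CPM in the other CM mice and 12.6 to 16.96 CPM in CM/miR-126Δ/Δ mice. Oas1a, Oasl2 and Zbp1, the sensor of Z-form nucleic acids, had log2 fold changes of 0.03, 0.18 and 0.24.

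**Figure D3:**
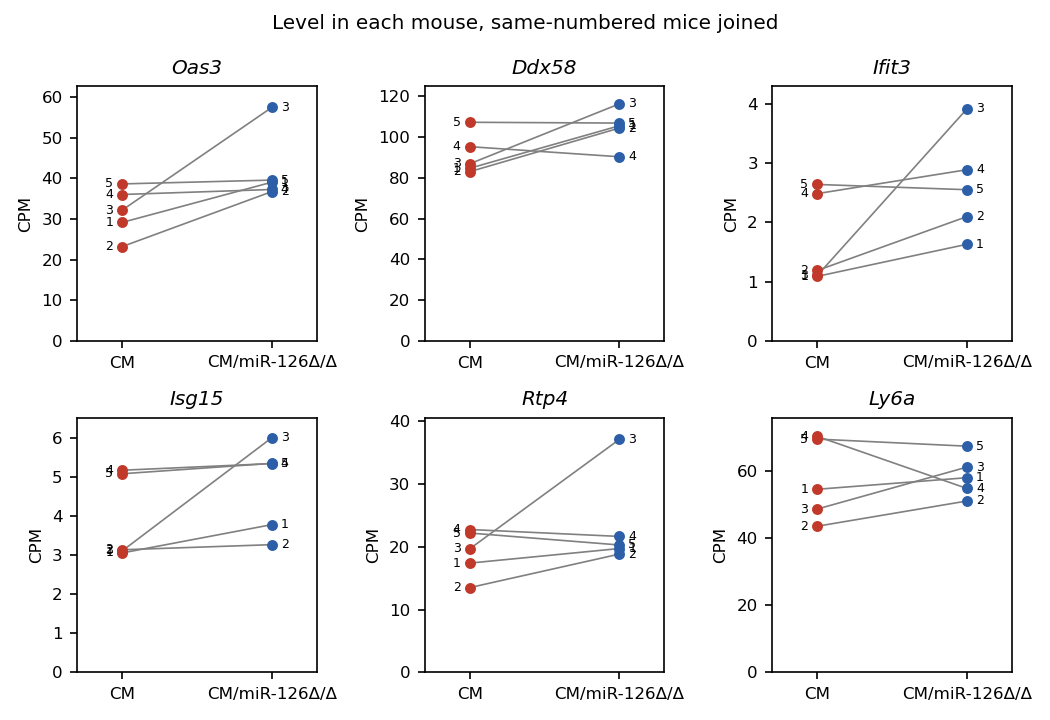
CPM of 6 ISGs in each of the 10 mice, with CM left, CM/miR-126Δ/Δ right, lines joining mice of the same number and the number beside each point. All 5 lines of Oas3 and of Isg15 slope up, mouse 3 stands at the top on the right in the first 5 panels (37.05 CPM for Rtp4), and the lines of Ly6a slope both ways.

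Of the 4 transcription factors, Irf7, the amplifier of type I interferon production that is itself interferon-induced, varied most. It measured 16.98, 16.6, 26.3, 27.4 and 31.3 CPM in CM mice 1 to 5 and 23.0, 18.4, 41.5, 28.4 and 23.5 CPM in CM/miR-126Δ/Δ mice 1 to 5. The highest mouse was CM/miR-126Δ/Δ mouse 3 and the lowest were mice 1 and 2 of CM and mouse 2 of CM/miR-126Δ/Δ. Its log2 fold change was 0.18 (SE 0.216), and -0.02 without mouse 3. Irf1, an interferon-γ-responsive factor, was steady at 119 ± 10.67 CPM in the CM group and 114 ± 12.05 CPM in CM/miR-126Δ/Δ mice. Stat2 and Irf9, partners in the complex that binds the GAAA element, had log2 fold changes of 0.05 (SE 0.0666) and 0.08 (SE 0.0968).

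Of the 6 genes of protein modification, 4 had a higher mean in CM/miR-126Δ/Δ mice, and 3 had one without mouse 3 of that genotype. Of genes with at least 1 RPKM, 42.5% had a higher mean over all mice. Without that mouse, 8919 of 18680 genes fitted had one. Isg15 measured 3.06, 3.14, 3.11, 5.18 and 5.08 CPM in CM mice 1 to 5 and 3.78, 3.27, 6.01, 5.34 and 5.35 CPM in CM/miR-126Δ/Δ mice 1 to 5. In CM, mice 4 and 5 stood apart from mice 1 to 3, and in CM/miR-126Δ/Δ mouse 3 joined mice 4 and 5. Each CM/miR-126Δ/Δ mouse exceeded its CM counterpart, at a log2 fold change of 0.28 (SE 0.218). Usp18, which removes Isg15 from proteins and damps the interferon receptor, gave a log2 fold change of -0.01 (SE 0.189).

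Parp14, an ADP-ribosyltransferase, measured 131, 129.6, 149, 137 and 161 CPM in CM mice 1 to 5 and 136, 152, 188, 149 and 176 CPM in CM/miR-126Δ/Δ mice 1 to 5. All 5 same-numbered comparisons were higher in CM/miR-126Δ/Δ mice (log2 fold change 0.18, SE 0.0899), as for Oas3, Eif2ak2 and Isg15 but no other ISG. The share of all genes with 5 of 5 is not given here. Pairing by number is uncertain, since only 5 of the 10 libraries correlated best with that of their own number. Its neighbours Dtx3l and Parp9, which act as a complex, gave 0.04 and 0.13, and Trim25, an E3 ligase that acts on RIG-I, gave -0.04.

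Of the 12 antiviral effectors, 9 had higher and 3 lower means in CM/miR-126Δ/Δ mice, and 7 had higher means without mouse 3 of that genotype. The share with a higher mean over all mice was 42.5% among genes with at least 1 RPKM. Without that mouse, 8919 of 18680 genes fitted had a higher mean. Ifit3 had the largest fold change of the list and the lowest level. It measured 1.09, 1.19, 1.11, 2.49 and 2.64 CPM in CM mice 1 to 5 and 1.63, 2.10, 3.92, 2.89 and 2.55 CPM in CM/miR-126Δ/Δ mice 1 to 5. CM mice 1 to 3 lay below all CM/miR-126Δ/Δ mice, and CM mice 4 and 5 lay within them. The log2 fold change was 0.61 (SE 0.313, adjusted p = 0.764 in edgeR's test).

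Of its neighbours, Ifit2 did not share this pattern and Ifit1 shared it in part. Ifit2, 6994 bases away, measured 40.4, 45.0, 42.3, 40.7 and 42.2 CPM in CM mice 1 to 5 and 49.1, 51.5, 48.3, 39.4 and 38.3 CPM in CM/miR-126Δ/Δ mice 1 to 5. It had the smallest spread of all 37 genes in CM, with an SD of 0.0610 on the log2 scale. In CM/miR-126Δ/Δ it was the only ISG for which mice 4 and 5 lay below mice 1 to 3. Of genes with at least 1 RPKM, 12.2% had this order. Ifit1 measured 9.66, 7.73, 10.1, 11.2 and 15.1 CPM in CM mice 1 to 5. In CM/miR-126Δ/Δ mice 1 to 5 it measured 9.83, 11.95, 20.6, 11.2 and 11.5 CPM. As for Ifit3, CM mice 4 and 5 lay above CM mice 1 to 3, and CM/miR-126Δ/Δ mouse 3 was the highest. Its log2 fold changes were 0.27 over all mice and 0.05 without CM/miR-126Δ/Δ mouse 3.

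Rtp4, an interferon-induced chaperone of receptor transport, measured 17.4, 13.5, 19.6, 22.7 and 22.2 CPM in CM mice 1 to 5 and 19.7, 18.8, 37.05, 21.6 and 20.3 CPM in CM/miR-126Δ/Δ mice 1 to 5. CM/miR-126Δ/Δ mouse 3 was the only one above the range of the CM mice, and the log2 fold change fell from 0.30 (SE 0.188) to 0.08 without it. Rsad2 (viperin), which makes a chain-terminating nucleotide from the product of its neighbour Cmpk2, gave 0.20 (SE 0.141), while Cmpk2 gave 0.01 (SE 0.120). The exonuclease Isg20 gave 0.14 (SE 0.129).

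The 3 effectors with lower means in CM/miR-126Δ/Δ mice were Bst2, Ifitm1 and Ifitm3, and none of them had an unadjusted p under 0.05 over all mice. Bst2 (tetherin), which holds budding virus at the cell surface, measured 26.5, 25.7, 24.4, 28.1 and 25.2 CPM in CM mice 1 to 5 and 21.1, 19.2, 27.8, 22.1 and 23.5 CPM in CM/miR-126Δ/Δ mice 1 to 5. Mice 1, 2, 4 and 5 of CM/miR-126Δ/Δ were below every CM mouse, and mouse 3 was above all CM mice but 1. The log2 fold change was -0.19 (SE 0.0968, adjusted p = 0.764 in edgeR's test). Ifitm1 and Ifitm3, the 2 genes of the list with the highest RPKM, gave -0.15 (SE 0.151) and -0.08 (SE 0.102), each within 1 SE of 0.

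Bst2 is also a marker of plasmacytoid dendritic cells, the main producers of type I interferon. The other 6 markers of that list summed to 190 to 267 CPM in the CM group and 216 to 248 CPM in CM/miR-126Δ/Δ mice, mostly through Tcf4 (215 CPM over all mice), which LSK cells express too, and none was at 0 in all mice. An unadjusted p under 0.05 was reached by 4 of the 6, each lower in CM/miR-126Δ/Δ, and they are named after their values were seen: Siglech (5.66 ± 2.55 against 2.99 ± 0.798 CPM), Ccr9 (3.01 ± 0.646 against 1.72 ± 0.535 CPM), Cox6a2 and Ly6d. Of all genes, 3.32% were lower at this level. The adjusted p-values of these 4 genes in edgeR's test ran from 0.612 to 0.746. Their part in the Bst2 values was not tested.

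Of the remaining genes, Ifi44 measured 18.1, 11.7, 19.2, 17.9 and 20.5 CPM in CM mice 1 to 5 and 18.8, 17.9, 33.3, 21.5 and 19.4 CPM in CM/miR-126Δ/Δ mice 1 to 5. CM mouse 2 was low and CM/miR-126Δ/Δ mouse 3 high, and the other 8 mice lay between 17.9 and 21.5 CPM. Its log2 fold change was 0.34 (SE 0.178), and 0.15 without mouse 3. Xaf1, an interferon-induced antagonist of the apoptosis inhibitor XIAP, gave 0.09 (SE 0.168), Ifi35 gave 0.04 (SE 0.0938), and the mitochondrial protein Ifi27 gave -0.12 (SE 0.111).

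The larger differences were between single mice. Each gene was expressed as its log2 CPM minus its mean over the 10 mice. The median of this deviation over the 37 genes was 0.33 in CM/miR-126Δ/Δ mouse 3, and it lay between -0.26 (CM mouse 2) and 0.12 (CM mouse 5) in the other mice. For all genes with at least 1 RPKM the same median was between -0.01 and 0.03 in every mouse. CM/miR-126Δ/Δ mouse 3 was the highest of the 10 mice for 24 of the 37 ISGs (64.9%), against 12.1% of genes with at least 1 RPKM. These included 9 of the 10 genes of RNA sensing, 5 of the 6 of protein modification and 6 of the 12 effectors. It lay below the mean for 4 genes, with Ifitm1 the lowest at 84.3 CPM.

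**Figure D4:**
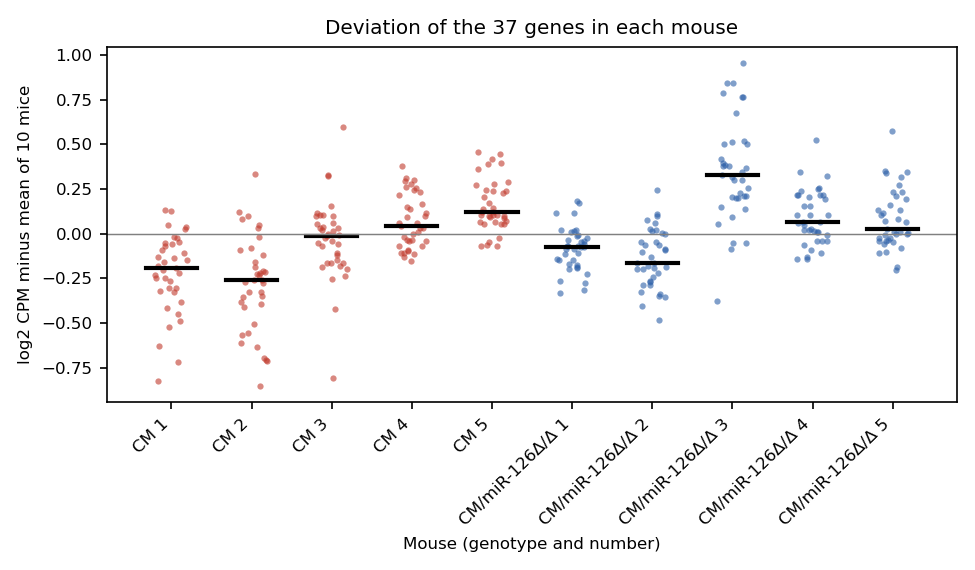
Deviation of the 37 ISGs in each mouse (log2 CPM minus the gene's mean over the 10 mice), 1 point a gene, with a bar at the median. The bar of CM/miR-126Δ/Δ mouse 3 is at 0.33, and the lowest are at -0.26 in CM mouse 2 and -0.19 in CM mouse 1.

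At the other end, CM mouse 2 was the lowest of the 10 mice for 17 ISGs (10.7% of genes with at least 1 RPKM), CM mouse 1 for 10 (9.9%) and CM/miR-126Δ/Δ mouse 2 for 7 (11.1%). The genes lowest in CM mouse 2 included Oas1a, Oas2, Oas3, Irf7, Ifi44, Rtp4 and Ly6a. Those lowest in CM mouse 1 included Ifit3, Isg15, Mx1, Mx2, Rsad2 and Stat2. The 7 lowest in CM/miR-126Δ/Δ mouse 2 were Irf1, Ifi27, Ifi35, Xaf1, Bst2, Ifitm1 and Ifitm3.

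CM mice 4 and 5 were both above mice 1 to 3 for 17 of the 37 (12.2% of genes with at least 1 RPKM). They were both below them for 0 (12.7%). They were both above mice 1 and 2 for 28 (18.2%). In CM/miR-126Δ/Δ, mice 4 and 5 were both above mice 1 to 3 for 5 (10.2%), namely Oas2, Mx2, Irf1, Stat2 and Ifi35, and both above mice 1 and 2 for 21 (19.5%). The split by number is also the split by Xist, so that sex and any other property shared by same-numbered mice cannot be told apart.

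**Figure D5:**
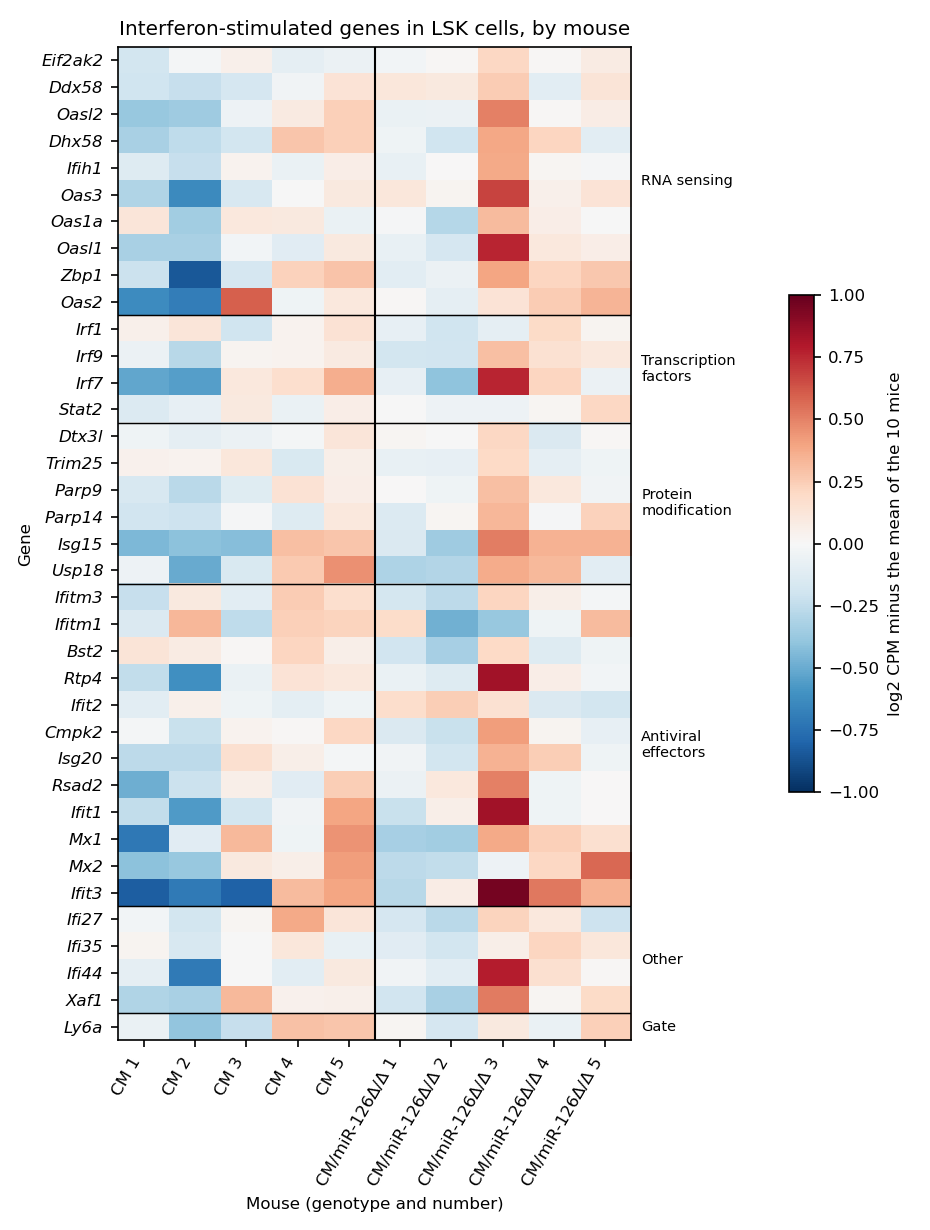
log2 CPM minus the mean of the 10 mice for each ISG (rows, by role) in each mouse (columns, CM left and CM/miR-126Δ/Δ right of the black line), with red above and blue below the mean and the colour scale ending at 1 and -1. CM mice 1 and 2 are mostly blue, and CM/miR-126Δ/Δ mouse 3 is red for 33 of the 37 rows.

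The ISGs varied more between mice of a genotype than most genes did. The comparison was not matched for level, and counting error adds to the spread of low genes such as Ifit3 (27 to 90 counts). The spread also includes differences between mice 1 to 3 and mice 4 and 5 of a genotype. The median SD of log2 CPM was 0.208 in CM and 0.217 in CM/miR-126Δ/Δ mice, and over 11682 genes with at least 1 RPKM it was 0.135 and 0.136. Of the 37 genes, 28 in CM and 32 in CM/miR-126Δ/Δ were above that median. Without CM/miR-126Δ/Δ mouse 3 the median of the ISGs was 0.157, with 21 above the median of all genes (0.130). The widest spread in both genotypes was that of Ifit3 (0.624 and 0.462), the narrowest that of Ifit2 in CM (0.0610) and of Eif2ak2 in CM/miR-126Δ/Δ mice (0.0927).

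CM/miR-126Δ/Δ mouse 3 was also the highest or lowest of the 10 mice in some other measures, by little for RNA concentration and B cell markers. Its library had the highest share of the 45S ribosomal RNA gene Rn45s, 22.6% of counts against 14.8 to 18.6% in the others. It also had the lowest RNA concentration on the labels (16.1 ng/µl, with 18.2 ng/µl the next) and the lowest normalization factor (0.922). The 10 markers of neutrophils and their precursors summed to 4451 CPM in this mouse, against 1605 to 3673 CPM in the others. This was mostly Mpo (3622 CPM), and of the markers of mature neutrophils S100a8, named after its value was seen, was lower there than in any other mouse (0.479 CPM). Its sums of 7 megakaryocyte markers (120.0 CPM, with Itga2b the highest and Gp6 at 0 in all mice) and of 8 B cell markers (24.5 CPM, with Cd79b the highest) were the lowest of the 10 mice. Ranges in the other mice were 156 to 235 CPM and 24.8 to 42.4 CPM. Its 10 monocyte markers summed to 216 CPM, the fourth highest sum, with Csf1r the highest. Over all 10 mice, 10 T and NK cell markers summed to 42.0 to 74.1 CPM (mostly Nkg7), 10 erythroid markers to 26.1 to 185 CPM (Ermap the highest, with Hbb-bt, Hba-a1 and Hba-a2 at 0 in all mice) and 7 endothelial markers to 209.8 to 263 CPM (mostly Pecam1), and this mouse lay inside these ranges. The part of these measures in its ISG levels was not tested.

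No pathway gene around the list was called between the genotypes. Of 21 interferon genes, 5 had any count, and the largest count in a library was 13 for Ifng, 4 for Ifnz and 1 each for Ifna7, Ifna11 and Ifnab. Ifnb1 had 0 counts in all 10 libraries. Among 10 receptor and kinase genes with at least 1 RPKM, none had an unadjusted p under 0.05. Jak1 was the highest (83.1 RPKM). Among the sensing adaptors, the highest was the DNA-sensing adaptor Sting, listed as Tmem173 (46.0 RPKM), and the 1 gene with an unadjusted p under 0.05 was Cgas, the cytosolic DNA sensor. Cgas measured 54.1 ± 5.46 CPM in the CM group and 45.1 ± 4.499 CPM in CM/miR-126Δ/Δ mice (log2 fold change -0.26, adjusted p = 0.661 in edgeR's test).

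In all, 121 of 138 pathway genes outside the list were fitted, 5 were higher and 5 lower in CM/miR-126Δ/Δ mice at an unadjusted p under 0.05, and 0 were called or had an adjusted p under 0.05. At this level 3.29% of all genes were higher and 3.32% lower. With the mouse number as a block, 21 pathway genes had an unadjusted p under 0.05. Of these, 10 were higher (8.26% of those fitted) and 11 lower (9.09%), against 4.27% and 4.62% of all genes. Without the block, the higher ones were the helicase Ddx60 (34.8 ± 4.45 against 42.7 ± 4.11 CPM), Trim30a, the interferon-γ-induced GTPase Iigp1 and, named after their values were seen, Rnf213 and Ifit1bl1. The lower ones were Cgas, the cytokine feedback inhibitor Cish, the lysosomal reductase Ifi30, the GTPase Gbp3 and the immunoproteasome subunit Psmb8 (208 ± 16.2 against 184 ± 23.97 CPM). Psmb8 was the highest of the interferon-γ list (160.2 RPKM), Ly6e of the other type I ISGs (345 RPKM) and the phosphatase gene Ptpn6 of the feedback regulators (77.5 RPKM). CM/miR-126Δ/Δ mouse 3 was again the highest for 34 of the 104 pathway genes with at least 1 RPKM, against 12.1% of all genes with at least 1 RPKM. Among them were 17 of 44 other type I ISGs and 7 of 21 genes of the interferon-γ list. There were also 3 of 10 receptor and kinase genes, 3 of 15 sensing adaptors and 4 of 14 feedback regulators.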

How the data were processed

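RNA sequencing of sorted LSK cells gave 1 rRNA-depleted library per mouse. Per the methods and the submitters' processing notes, trimming by the authors used Trimmomatic 0.38 and FASTP 0.19.4, alignment to the mm10 genome used Tophat 2.0.8, and HTSeq 0.6.1 assigned reads to RefSeq genes. What they deposited as raw counts are whole reads per gene, not normalized. A second deposited table, each count divided by 1 constant per library, was not used.

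Genes with at least 1 count entered a fit by edgeR 4.0.16 under R 4.3.3 (TMM normalization, quasi-likelihood F-test in its edgeR 3 form, two-sided, genotype only). Standard errors are the log2 fold change divided by the root of F. RPKM used exon length and TMM-scaled totals, CPM used the same totals, and deviations used log2 CPM with a prior count of 2. Count tests were tested on simulated data. DESeq2 1.42.0 and other settings were alternatives. Totals of 23649233 to 33202086 counts set the precision, and no libraries were duplicates.

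Same-numbered mice correlated at 0.172 to 0.465 over genes, and 5 of 5 pairs exceeded 0.1, so the numbers were taken as pairs. Only 5 of the 10 libraries correlated best with the library of their own number, and CM 5 with CM/miR-126Δ/Δ 4 (0.499) and CM 2 with CM/miR-126Δ/Δ 1 (0.421) correlated more than CM 5 (0.172) and CM 2 (0.246) did with their own numbers. Replicate numbers come from the sample titles. The 37 genes and the pathway and marker lists were chosen with earlier results of these data known. All 37 could be named. Of the pathway lists, the gene with the highest RPKM, any called gene and the 3 smallest p-values were named, and of the marker lists the most abundant gene. Some items are not reported here.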

Additional observations from a re-analysis of the deposited data

Results flagged for a closer look

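In 80 groups of 5 mice (37 ISGs and 3 library measures in each genotype), 1 mouse lay far from the other 4 in 10. The rule was Dixon's criterion (critical value 0.71), which chance passes in about 1 in 20 independent groups, or about 4 of 80. These groups share the same 5 mice of a genotype and are not independent, so the 10 groups found cannot be set against that number. In 9 of the 10 the mouse was CM/miR-126Δ/Δ mouse 3, and in each it was high. Among the sensors, it had 57.5 CPM of Oas3 against 36.8 to 39.6 in the other 4 mice, 17.7 CPM of Oasl1 against 9.29 to 11.2, 79.0 CPM of Oasl2 against 53.3 to 58.7 and 72.1 CPM of Ifih1 against 52.8 to 56.1. Among the effectors, it had 20.6 CPM of Ifit1 against 9.83 to 11.9, 30.3 CPM of Rsad2 against 20.5 to 23.0 and 37.05 CPM of Rtp4 against 18.8 to 21.6. It also had 33.3 CPM of Ifi44 against 17.9 to 21.5 and 182 CPM of Trim25 against 149 to 154. Apart from mouse 3, Stat2 measured 60.8 CPM in CM/miR-126Δ/Δ mouse 5, against 50.7 to 53.4 CPM in the other 4.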

How the results depend on the processing

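Of 927 recomputed values, 872 kept their direction and side of the threshold, 26 counts moved by more than 1.5 times and 29 fold changes of 12 genes, none of which had passed a threshold, changed sign. The cause was not tested. No ISG was called under any alternative run. The mouse-number block raised the ISGs with an unadjusted p under 0.05 from 2 to 7, all higher, and the pathway genes from 10 to 21, and it changed no other call. The block without the mice numbered 3, chosen after seeing the data, gave 6, with 3 lower. Leaving out 1 mouse gave 1 to 9, with 0 to 9 higher and 0 to 1 lower.

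Sign changes were small. Under the block Cmpk2 was -0.0035. With the mice numbered 3 also left out, the log2 fold changes were -0.014 for Oas1a, -0.018 for Dhx58, -0.020 for Dtx3l, -0.10 for Cmpk2 and -0.023 for Ly6a. With 1 mouse left out, they ran from -0.11 to 0.16 for Mx1, -0.047 to 0.10 for Oas1a, -0.11 to 0.076 for Cmpk2, -0.056 to 0.13 for Ly6a, -0.094 to 0.0015 for Trim25, -0.13 to 0.13 for Usp18, -0.024 to 0.32 for Irf7, -0.011 to 0.092 for Dtx3l, -0.041 to 0.21 for Xaf1, -0.067 to 0.24 for Mx2 and -0.00049 to 0.092 for Stat2. Depth limits the low genes most: Ifit3 rests on 1.09 to 3.92 CPM.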
